A study of Mus musculus with 4 samples.

Results

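The genes described here encode enzymes that finish the ends of transfer RNAs (tRNAs), together with proteins that splice tRNA precursors or hold their ends. They are Thg1l, Elac1, Elac2, Trnt1, Rtcb, Clp1, Tsen34, Tsen54 and Ssb, 9 of the 12486 genes in a PRO-seq count table, and each was found there by its gene name. PRO-seq extends nascent RNA in isolated nuclei and sequences its 3′ end, so a count per gene reflects engaged RNA polymerase II rather than the amount of mRNA. Thg1l and Elac1 were chosen by their measured falls in the comparison reported here, so their changes are given as descriptions. That the fit calls them lower follows from this choice and is no independent evidence. The other 7 genes were added for their place in the same pathway.

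Counts came from mouse embryonic stem (mES) cells grown without feeders, a diploid line first derived as haploid. All 4 libraries were from the same AID-Zfp574 line, in which the zinc-finger protein Zfp574 carries an auxin-inducible degron (AID) at its N terminus, and which also expresses the plant ubiquitin ligase subunit OsTir1 from an EF1a-driven cassette. The 2 control libraries were from untreated cells (0 h) and the 2 depletion libraries from cells given 500 µM of the auxin indole-3-acetic acid (IAA) for 6 h, which sends the tagged protein to the proteasome. Auxin and loss of Zfp574 cannot be told apart in these libraries, because no untagged cells treated with auxin enter the comparison, and tagged lines were picked as single clones.

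Library totals ran from 3298864 to 3616429 counts in the controls and from 5670904 to 6045216 after depletion. Replicates differed by more than counting noise: the chi-square divided by its degrees of freedom was 1.85 for the control pair and 1.49 for the depletion pair. Zfp574 itself, whose protein and not whose gene is targeted, was counted 80 and 130 times in control and 195 and 219 times in depletion libraries, a log2 fold change of 0.25 (adjusted p = 0.406 in edgeR). Of 12 pluripotency markers 11 had a row, with counts from 30 to 10421. Their summed level lay between 4450 and 4590 counts-per-million in every library. Esrrb and Tfcp2l1 made up most of this sum, with control means of 1764 and 1431 counts-per-million, so it says little about the other markers. Only Utf1 among the 11 passed an adjusted p under 0.05 in edgeR, at a log2 fold change of -0.61. The 4 germ layer markers with a row summed to between 13.5 and 25.1 counts-per-million, and Thy1, the 1 fibroblast marker with a row, had between 3 and 9 counts.

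A tRNA is transcribed with extra sequence at both ends, and some precursors also carry an intron. RNase P cuts the 5′ leader, RNase Z cuts the 3′ trailer, the enzyme encoded by Trnt1 adds the CCA tail on which the amino acid is loaded, and introns are cut out by the TSEN endonuclease before the exons are joined. Histidine tRNA needs 1 further step, the addition of a guanosine ahead of its first base, which is the reaction of the enzyme encoded by Thg1l and a mark recognised by histidyl-tRNA synthetase. Mammals have 2 RNase Z enzymes: Elac2 acts in the nucleus and mitochondria on nearly all precursors, and the shorter Elac1 is cytosolic and is known for clearing the ends of tRNAs that were cleaved during ribosome rescue.

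After 6 h of depletion, transcription of Thg1l and Elac1 stood at 9.04% and 21.5% of the control level, while each of the other 7 genes stood between 78.1% and 103%. A gene was called when edgeR's quasi-likelihood test gave it an adjusted p under 0.05 together with a 2-fold change or more. By this rule 2 of the 9 genes were lower, the same 2 on which the set was built, and 0 were higher, also at an unadjusted p under 0.05. Over all 11853 genes tested, 0.321% were called lower and 0% higher. Without adjustment for the number of genes, 7 genes were higher by 2-fold at a p under 0.05. Among genes lower at an adjusted p under 0.05 in edgeR, the last past 2-fold was Pars2, at a log2 fold change of -1.02. The first short of 2-fold was Srp68, at -0.99. With the fold threshold dropped the members' calls did not change, against 1.4% of all genes lower and 1.11% higher.

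**Figure D1:**
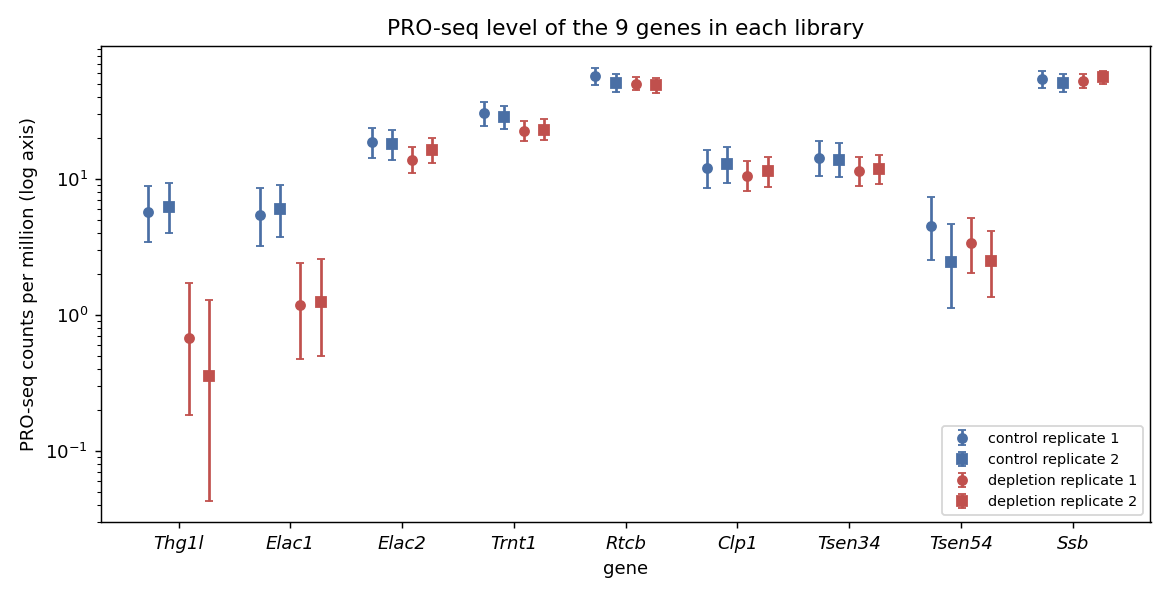
PRO-seq level of each of the 9 genes in counts-per-million on a log axis, with 1 point per library (blue for control, red for depletion, circle for replicate 1, square for replicate 2) and bars for the 95% Poisson counting interval. Thg1l and Elac1 lie at 5.41 to 6.28 in the controls and at 0.356 to 1.25 after depletion, and the points of the other 7 genes lie close together in the 2 conditions.

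Thg1l, which encodes the tRNA-histidine guanylyltransferase, has the identifier ENSMUSG00000011254, lies on chromosome 11 (mm10, 45946843 to 45955494, minus strand) and spans 8.65 kb. It was counted 19 and 23 times in control and 4 and 2 times in depletion libraries. In counts-per-million (CPM, scaled to the TMM-adjusted library size) these were 5.71 and 6.28 against 0.672 and 0.356. Both depletion libraries lay far below both controls. The 95% Poisson intervals of the controls were 3.44 to 8.92 and 3.98 to 9.42 CPM. Those of the depletion libraries were 0.183 to 1.72 and 0.0431 to 1.29 CPM and lay lower. Thg1l was chosen for its fall in these libraries, so this separation follows from the choice and is no evidence of its own. The log2 fold change was -3.47 (standard error 0.47), or 11.1-fold, the lowest of the 11853 genes tested. The 4 ratios of a depletion to a control library ranged from -4.14 to -3.09 on the log2 scale. With 6 counts left in the depletion libraries together, the size of the fall is known only roughly. Thg1l and Elac1 passed the filter on low counts through the control libraries alone, so a gene at their depletion level in all 4 libraries would not have been tested.

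The 250 bases before the RefSeq start of Thg1l are shown because they hold a stretch that recurs among the genes called lower. They lie at chr11:45955504-45955753 (GRCm38.p6, minus strand) and are written in the direction of the gene, with the bases CTAGAG in capitals.
Thg1l: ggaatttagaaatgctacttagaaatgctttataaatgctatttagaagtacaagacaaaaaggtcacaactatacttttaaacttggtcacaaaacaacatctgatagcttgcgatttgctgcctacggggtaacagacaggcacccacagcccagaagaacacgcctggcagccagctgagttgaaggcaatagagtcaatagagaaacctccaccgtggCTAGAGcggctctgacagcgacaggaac

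The capitals begin at position -28, counted from the start with -1 as the base before it. Of the 568 distinct stretches of 8 bases in the 2 windows that RefSeq gives for Thg1l, CTAGAGCG was shared with the most other genes called lower while being rare elsewhere: 7 of 33 such genes with a promoter sequence (21.2%) held it, against 155 of the 9295 tested genes that have one (1.67%). GGCCGGAA was shared with as many, 7 of 33, and was held by 3.53% of tested genes. The shorter CTAGAG, on either strand, was held by 19 of the 34 called genes with a promoter sequence (55.9%, Thg1l included), by 17.3% of tested genes and by 14.6% of all 32851 promoter windows of 300 bases. These letters were picked after the calls were known and carry no test, and a match does not show that a protein binds there.

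The genes whose pattern over the 4 libraries was nearest to that of Thg1l, by Euclidean distance of gene-centred log2(CPM + 0.5), were Xrn1 (distance 0.356), Zfp445 (0.421) and Eef1akmt2 (0.635). Nearest to Elac1 were Timm10 (0.184), Jagn1 (0.316) and Zscan26 (0.347). All 6 are themselves genes called lower, with log2 fold changes from -2.79 for Xrn1 to -1.65 for Zscan26. This follows from the measure, since nearness over the same 4 libraries to a gene chosen for its fall picks out lowered genes. The same 6 bases occur before the start of 5 of the 6 genes. These 5 were already counted among the 19 of 34 called genes with CTAGAG (55.9%, beside 17.3% of tested genes), so they add no independent evidence. Jagn1 has no match in either of its windows. The match in each is shown with up to 12 bases on either side, on the strand that reads CTAGAG, to let the flanks be compared.
Thg1l, position -28, chr11:45955514-45955543, minus strand: cctccaccgtggCTAGAGcggctctgacag
Xrn1, position -32, chr9:95954716-95954745, minus strand: caaaccgtgggcCTAGAGgggcaggacggc
Eef1akmt2, position -33, the nearest of 3 matches, chr7:132852663-132852692, minus strand: gcctcctattgcCTAGAGaggccaggtccg
Zscan26, position -49, chr13:21453759-21453788, minus strand: cctcccatcgtcCTAGAGcggagccggaaa
Timm10, position -82, chr2:84826927-84826956, minus strand: gaccttaatttgCTAGAGtggactccaaag
Zfp445, position -213, chr9:122866202-122866231, plus strand: acctgggacttcCTAGAGggtcattctgag
Elac2, position -128, chr11:64978895-64978924, minus strand: agtaagcgaaagCTAGAGcgtcgccggagg

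Elac2 is included in that comparison because it was not called and yet holds both CTAGAG and the longer CTAGAGCG. Besides Thg1l, it is the only one of the 6 members with a promoter sequence (Thg1l, Elac2, Clp1, Tsen34, Tsen54 and Ssb) to hold CTAGAG. Elac1, Trnt1 and Rtcb had no entry. Among motifs of common promoter elements, the GC box GGGCGG was found in all 6, as in 35.7% of all windows and 69.8% of tested genes. The ETS-type CCGGAAG was found in Thg1l alone, in both of its windows, at -1 and -47. It is held by 8.86% of windows, 20.8% of tested genes and 13 of the 34 called genes with a promoter sequence (38.2%, Thg1l included). CCAAT was found in Thg1l and Elac2 (37.4% of windows and 43.0% of tested genes). TATAAA was found in Thg1l (13.6% and 8.4%), far from the start at -222 and -220, and CACGTG in Tsen54 (7.15% and 12.1%). TGACGTCA, CGCGAGA, AAGATGGC and GCGCATGC, each held by 1.79% to 2.75% of windows and 3.84% to 6.53% of tested genes, had no match in these members. Both strands were searched for exact matches.

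Elac1 (ENSMUSG00000036941, chromosome 18, mm10, 73735038 to 73754479, minus strand) spans 19.4 kb. It was counted 18 and 22 times in control and 7 times in either depletion library, or 5.41 and 6.00 CPM against 1.18 and 1.25 CPM. Both depletion libraries were again below both controls, which likewise follows from the choice of Elac1 for its fall. The depletion libraries differed from each other by less than their counting intervals, 0.473 to 2.42 and 0.501 to 2.57 CPM. The log2 fold change was -2.22 (standard error 0.39), or 4.65-fold, and it ranked 8th from the lowest of all genes tested. The 4 library ratios ranged from -2.35 to -2.12 on the log2 scale, a narrower range than for Thg1l. Elac1 was not among the genes called lower in DESeq2.

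Elac2, the other RNase Z (ENSMUSG00000020549, chromosome 11, 64979038 to 65002069, plus strand), was counted 62 and 66 times in control and 83 and 92 times in depletion libraries. In CPM these were 18.6 and 18 against 13.9 and 16.4, so both depletion libraries were below both controls. The nearest libraries of the 2 conditions were closer to each other than the depletion libraries were among themselves. The log2 fold change was -0.27 (standard error 0.17) and an adjusted p of 0.458 in edgeR's quasi-likelihood test. Its 95% interval ran from -0.63 to 0.08, above a 2-fold fall. Per kilobase of gene, the level of Elac1 in the controls was 0.294 ± 0.0216 CPM (SD, n = 2) and that of Elac2 was 0.796 ± 0.0190 CPM, and after depletion these levels were 0.0623 ± 0.00254 and 0.658 ± 0.0746 CPM.

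Trnt1 adds the CCA tail (ENSMUSG00000013736, chromosome 6, 106769120 to 106782474, plus strand). It was counted 101 and 104 times in control and 135 and 130 times in depletion libraries, or 30.4 and 28.4 CPM against 22.7 and 23.1 CPM. The groups did not overlap. Its log2 fold change of -0.36 (standard error 0.13) was the lowest among the 7 genes not chosen for their falls, and the only one of the 7 with an unadjusted p under 0.05, at an adjusted p of 0.172 in edgeR's quasi-likelihood test. The 95% interval ran from -0.63 to -0.08.

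Ssb encodes the La protein, which binds the uridine-rich 3′ ends of new RNA polymerase III transcripts and shields them until they are trimmed (ENSMUSG00000068882, chromosome 2, 69861562 to 69871846, plus strand). It was counted 181 and 187 times in control and 314 times in either depletion library, or 54.4 and 51.0 CPM against 52.7 and 55.9 CPM. The conditions overlapped, and the log2 fold change was 0.04 (standard error 0.10) (adjusted p = 0.885 in edgeR). Its 95% interval ran from -0.16 to 0.25.

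Rtcb encodes the ligase that joins the cut tRNA exons after splicing (ENSMUSG00000001783, chromosome 10, 85938637 to 85957823, minus strand). It was counted 191 and 187 times in control and 300 and 275 times in depletion libraries, or 57.4 and 51.0 CPM against 50.4 and 48.9 CPM. The depletion libraries were lower, but by less than the control libraries differed from each other. The log2 fold change was -0.12 (standard error 0.10) (adjusted p = 0.609 in edgeR). Clp1, an RNA kinase bound to the TSEN complex (ENSMUSG00000027079, chromosome 2, 84722104 to 84727350, minus strand), was counted 40 and 47 times in control and 63 and 64 times in depletion libraries, or 12 and 12.8 CPM against 10.6 and 11.4 CPM. Its log2 fold change was -0.18 (standard error 0.20) (adjusted p = 0.719 in edgeR).

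Tsen34 and Tsen54 encode a catalytic and a structural subunit of the splicing endonuclease. Tsen34 (ENSMUSG00000035585, chromosome 7, 3692863 to 3701024, plus strand) was counted 48 and 51 times in control and 68 and 67 times in depletion libraries, or 14.4 and 13.9 CPM against 11.4 and 11.9 CPM. The groups did not overlap, and the log2 fold change was -0.28 (standard error 0.19) (adjusted p = 0.498 in edgeR). Tsen54 (ENSMUSG00000020781, chromosome 11, 115814724 to 115823094, plus strand) was counted 15 and 9 times in control and 20 and 14 times in depletion libraries, or 4.51 and 2.46 CPM against 3.36 and 2.49 CPM. Its control libraries differed more from each other than either did from a depletion library. The log2 fold change was -0.22 (standard error 0.39) (adjusted p = 0.841 in edgeR), and its 95% interval of -1.02 to 0.58 is the only one among the 7 that a 2-fold fall lies within. A 2-fold fall of Tsen54 could thus not be told from no change at this depth.

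**Figure D2:**
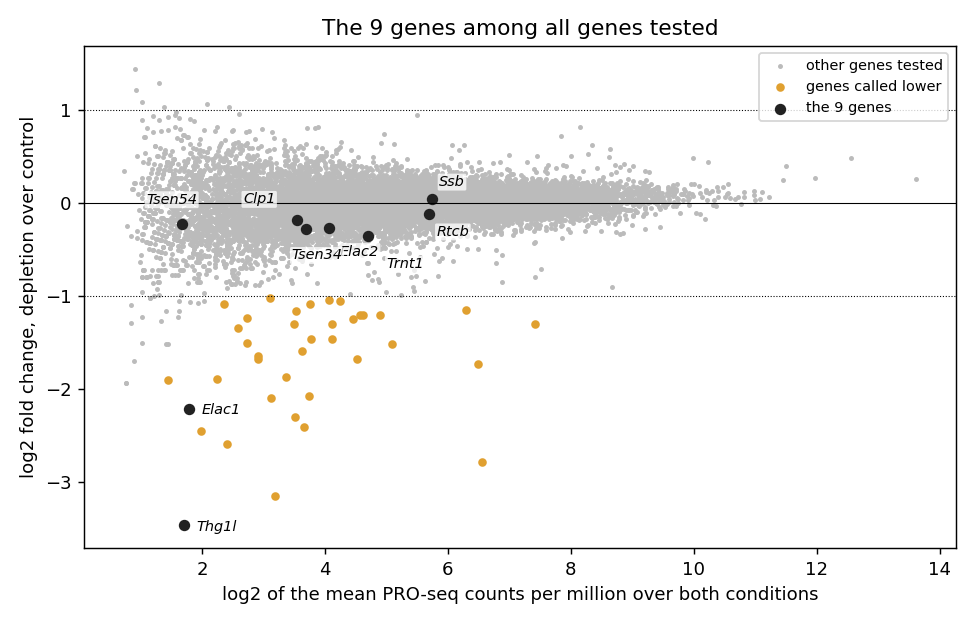
Log2 fold change of depletion over control against the log2 of the mean CPM over both conditions, with 1 point per tested gene (grey), the genes called lower (orange) and the 9 genes (black, named). Thg1l is the lowest point of the plot at -3.47, Elac1 stands at -2.22, and the other 7 genes lie within -0.36 to 0.04; dotted lines mark a 2-fold change.

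In 5 of these 7 genes (Elac2, Trnt1, Rtcb, Clp1 and Tsen34) both depletion libraries lay below both controls, which was so for 22.9% of all genes tested, with 23.4% above. The median log2 fold change of the 7 was -0.22, beside -0.002 over all genes tested. These are small differences: in 6 of the 7 genes the 95% interval excluded a 2-fold fall, and in 6 it included no change. Scaling by TMM takes most genes as unchanged, so a shift common to all genes was not measured.

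Thg1l, Elac1 and Tsen54 were the 3 members with the fewest counts. In the controls Thg1l stood at 5.99 ± 0.401 CPM (SD, n = 2), Elac1 at 5.71 ± 0.421 and Tsen54 at 3.48 ± 1.45, and the next member was Clp1 at 12.4 ± 0.570. Per kilobase of gene span in the control cells, the order was Ssb at 5.13 ± 0.231 CPM (SD, n = 2), Rtcb at 2.83 ± 0.234, Clp1 at 2.37 ± 0.109, Trnt1 at 2.20 ± 0.104, Tsen34 at 1.74 ± 0.0438, Elac2 at 0.796 ± 0.0190, Thg1l at 0.693 ± 0.0464, Tsen54 at 0.416 ± 0.173 and Elac1 at 0.294 ± 0.0216. In this order the ranges of mean ± SD overlapped for Clp1 and Trnt1 and for Tsen54 and Elac1, and for no other neighbours. On this control level per kilobase, Thg1l was at the 25th percentile of tested genes and Elac1 at the 6.59.

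Neighbouring genes were described to place the falls along the chromosome. The nearest gene of the count table to Thg1l, by annotated start, was Lsm11 at 10559 bases on the same strand, with control counts of 123 and 126 and depletion counts of 186 and 172 (log2 fold change -0.20, standard error 0.12). The nearest to Elac1 were Smad4 at 50699 bases, at 0.03 with a standard error of 0.07, and Me2 at 60970 bases, at -0.10 with a standard error of 0.08. None of these 3 was called (adjusted p from 0.433 to 0.897 in edgeR). Of the 18 nearest genes, 2 for each member, 17 did not pass an adjusted p under 0.05. Over all genes tested only 1.4% passed it as lower and 1.11% as higher, so this count does not set the neighbours apart. The 1 that did was Rps9, a ribosomal protein gene 11130 bases from Tsen34 on the same strand, with control counts of 803 and 783 and depletion counts of 808 and 792, at -0.72 with a standard error of 0.07 (adjusted p = 3.42e-08 in edgeR). These neighbours were picked after their values were seen. Mboat7, whose start lies 660 bases from that of Tsen34 on the other strand, was the only tabled gene starting within 1000 bases of a member, and it stood at 0.12 with a standard error of 0.16.

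The wider machinery of tRNA synthesis was compared through 5 lists of 132 genes, of which 124 were tested. Of the enzymes that load amino acids onto tRNAs, the lists held only Hars and Hars2. Pars2, the mitochondrial prolyl-tRNA synthetase gene called lower at -1.02, is in none of them. In edgeR's quasi-likelihood test 0 of the 124 were called lower and 0 higher at 2-fold, beside 0.321% and 0% of all genes tested. The same counts held without the fold threshold, beside 1.4% and 1.11%. At such shares few calls or none would be found in any 124 genes, so these counts do not set the lists apart. DESeq2, limma-voom and edgeR's likelihood ratio test also called 0 at 2-fold. At an unadjusted p under 0.05, 12 of the 124 (9.68%) were lower and 2 (1.61%) higher, beside 7.66% and 8.53% of all genes tested. Their median log2 fold change was -0.07 and 83 of 124 (66.9%) were below 0, beside 50.6% of all genes tested.

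**Figure D3:**
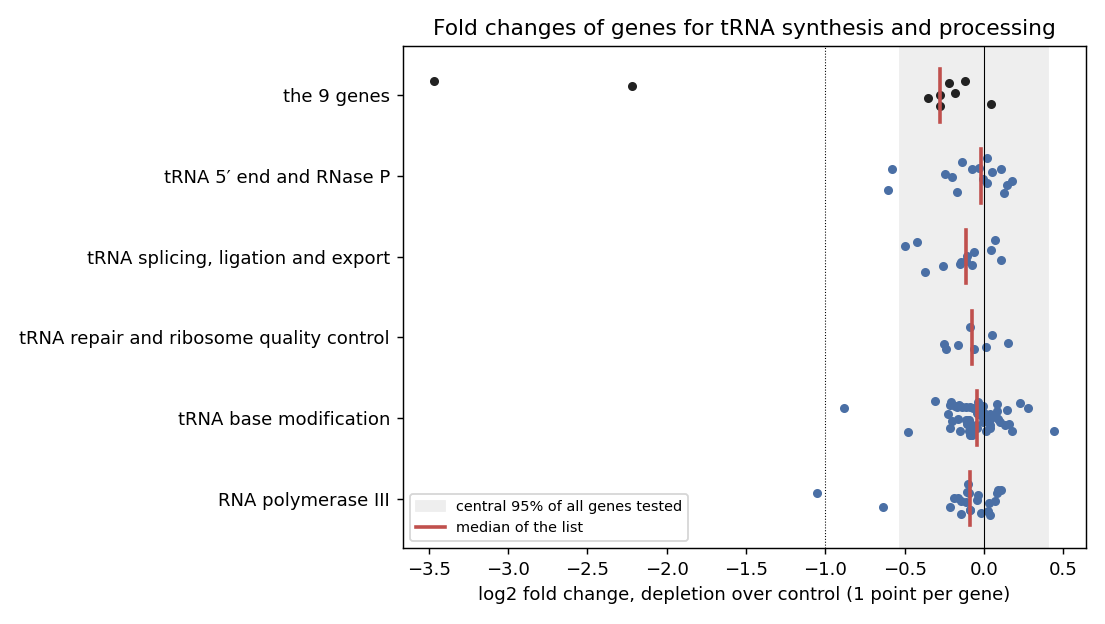
Log2 fold change of depletion over control for each tested gene of the 9 members and of the 5 lists, 1 point per gene, with a red bar at each list's median and grey shading for the central 95% of all genes tested (-0.53 to 0.40). Thg1l and Elac1 stand apart on the left, and Polr3c at -1.05 is the lowest gene of the 5 lists.

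At the 5′ end of the tRNA, 16 genes for the subunits of nuclear RNase P, its mitochondrial counterpart and the histidyl-tRNA synthetases had a median log2 fold change of -0.02. The lowest was Hars2, the mitochondrial histidyl-tRNA synthetase, with control counts of 36 and 32 and depletion counts of 46 and 28, at -0.60 with a standard error of 0.25 (adjusted p = 0.222 in edgeR). The highest was Pop4 at 0.18. Hars, the cytosolic synthetase that charges the product of the Thg1l enzyme, was counted 41 and 38 times in control and 78 and 63 times in depletion libraries, and stood at 0.11 with a standard error of 0.20.

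The partners of Rtcb, Clp1 and the TSEN subunits in splicing, ligation and export had a median of -0.12 over 13 tested genes. Ddx1, the helicase of the ligase complex, was counted 145 and 175 times in control and 232 and 210 times in depletion libraries, at -0.26 with a standard error of 0.11 (adjusted p = 0.230 in edgeR). Among 8 genes of tRNA repair and ribosome quality control, the setting in which Elac1 is known to act, the median was -0.08, from -0.25 for Pelo to 0.15 for Vcp. Ankzf1, the nuclease that releases peptidyl-tRNA by cutting its 3′ end, was counted 12 and 9 times in control and 16 and 15 times in depletion libraries, at -0.16 with a standard error of 0.40.

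Enzymes of tRNA base modification formed the longest list, with 64 tested genes and a median of -0.05. Ftsj1, a 2′-O-methyltransferase of the anticodon loop, was the lowest, with control counts of 33 and 33 and depletion counts of 26 and 33, at -0.89 with a standard error of 0.25 (adjusted p = 0.0610 in edgeR). Trmt12, which takes part in wybutosine synthesis, was the highest, with 84 and 79 counts against 178 and 189, at 0.44 with a standard error of 0.14 (adjusted p = 0.0871 in edgeR). RNA polymerase III and its initiation factors, which transcribe the tRNA genes, had a median of -0.09 over 23 tested genes, with Gtf3c3 the highest at 0.11. Polr3c, a polymerase subunit, was the lowest of all 124, with control counts of 17 and 22 and depletion counts of 17 and 14, at -1.05 with a standard error of 0.33. It was past 2-fold but not past the test (adjusted p = 0.0925 in edgeR).

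**Figure D4:**
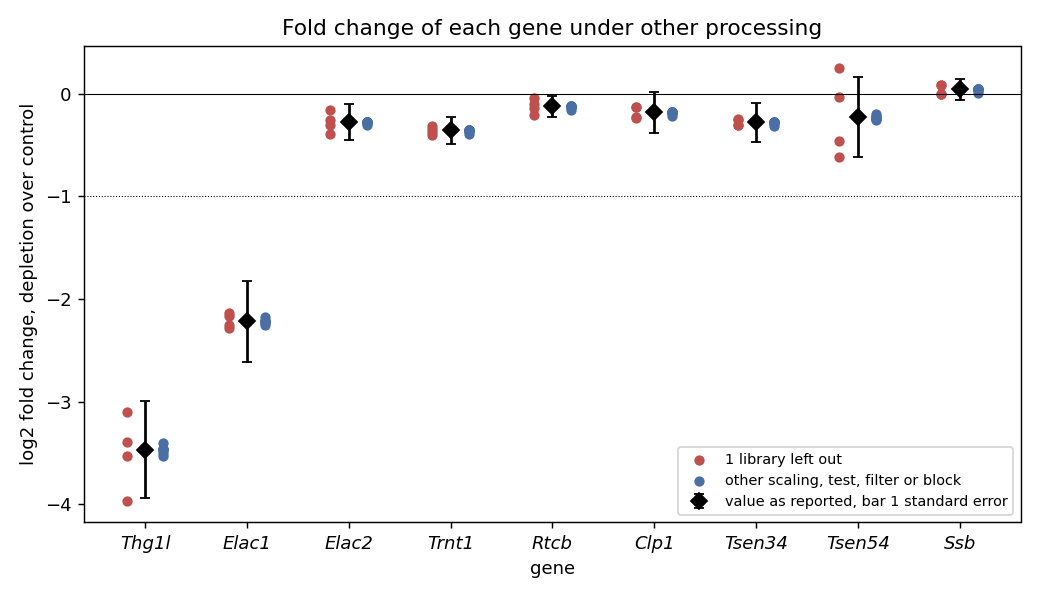
Log2 fold change of each of the 9 genes as reported (black, bar of 1 standard error), with 1 library left out (red) and under other scalings, tests, filters or the replicate block (blue). Thg1l stays between -3.97 and -3.11 and Elac1 between -2.29 and -2.14, while Tsen54 moves from -0.61 to 0.26 with the library left out.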

How the data were processed

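The authors trimmed adapters with cutadapt 1.18, mapped reads to mm10 with Bowtie 1.2.2 keeping single best positions, collapsed reads by unique molecular identifier and deposited whole-number counts of nascent RNA 3′ ends per gene on the strand of transcription, over Ensembl genes with CAGE-corrected starts. The deposited counts are not normalized. Their DESeq2 comparison was also deposited and was not used.

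The table was filtered with filterByExpr (minimum count 10, minimum total 15), which is 2.15 counts-per-million in 2 libraries, leaving 11853 of 12486 genes. Libraries were scaled with TMM, and depletion was compared with control in edgeR 4.0.16 (R 4.3.3) by glmQLFit and glmQLFTest, two-sided, with Benjamini-Hochberg adjustment over all genes tested. The study scaled on Drosophila spike-in reads, which were not used here. Standard errors are those implied by the F statistic, and 95% intervals use its degrees of freedom. Poisson intervals cover counting error only. Alternatives used DESeq2 1.42.0 and limma 3.58.1, and scripts were tested on simulated data. P-values rest on 2 biological replicates per condition. The spread of each gene is moderated by that of all genes tested, so they do not measure its own replicate spread alone.

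Positions came from GENCODE M21, which matched 12474 genes, and promoters from RefSeq (GRCm38.p6, 250 bases before to 50 after the start). Neither holds the authors' corrected starts. The planned comparison of the Thg1l and Elac1 promoters was not made. Named genes were the 9 members, the lowest and highest gene of each list (not reported here for splicing, ligation and export), genes starting within 1000 bases of a member, and the 3 genes nearest in pattern to Thg1l and Elac1. Lsm11, Smad4, Me2, Rps9, Hars, Ddx1, Ankzf1, Utf1, Pars2 and Srp68 were added after their values were seen. The members and lists were chosen with earlier results of these data known.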

Additional observations from a re-analysis of the deposited data

How the results depend on the processing

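The fold changes of Thg1l and Elac1 kept their direction under every alternative that tested them, and with 1 library left out they ranged from -3.97 to -3.11 and from -2.29 to -2.14. These fits leave 1 library alone in its condition, which is assumed to vary like the others. The number of members called lower fell from 2 to 1 in DESeq2, where Elac1 was not called, and to 0 when a mean of 20 counts was required, since that filter leaves 6 of the 9 members and drops Thg1l, Elac1 and Tsen54. Thg1l and Elac1 were chosen on these values, so the count says nothing of stability. No member was called higher under any alternative. Of 105 values of single members under other settings, 102 kept their direction and side of the threshold. Tsen54 reversed to 0.26 without control replicate 1 (range -0.61 to 0.26 with 1 library left out), and Ssb to -0.0030 without control replicate 2 (range -0.0030 to 0.089). Elac2 moved from -0.27 to -0.16 without depletion replicate 1, and Rtcb from -0.12 to -0.04 without control replicate 1 and to -0.21 without control replicate 2, neither of them called. The 5 tRNA lists had 0 calls in either direction under every alternative. With 0.321% of all genes tested called lower and 0% higher in the main fit, this does not set the lists apart.

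Over all genes, the count called lower was 166 with no fold threshold and 72 at 1.5-fold, against 38, and the count called higher was 132 and 12. At 2-fold, DESeq2 called 28 genes lower and the filter at a mean of 20 counts 33, while limma-voom called 41 and the likelihood ratio test 43. The likelihood ratio test and the replicate block each called 1 gene higher, and leaving out 1 library gave from 1 to 8 genes higher and from 31 to 44 lower, and the cause was not tested. The labels do not say whether same-numbered libraries were handled together. Deviations of same-numbered libraries had a correlation of 0.04, a value that counting noise lowers, so it cannot decide whether they were paired. With the replicate block, 43 genes and the same number of members, 2, were lower. Library totals moved the median of all genes to -0.036. Depth limits the members with few counts, where Thg1l rests on 6 counts after depletion and Tsen54 on 24 in the controls.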
